A study of Mus musculus with 165 samples.

Results

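PUER cells kept in IL3, the condition in which they become macrophages, were compared 12h and 32h after the addition of 4-hydroxytamoxifen (OHT), with 3 RNA-Seq libraries at each time point. These 6 libraries were taken by their labelled condition and time, and are 2 of the 56 groups of the series. PUER is a myeloid progenitor line from mice without PU.1 (*Spi1*-/-), labelled as derived from bone marrow, and it expresses a fusion of PU.1 and the hormone-binding part of the estrogen receptor, which OHT activates. Both groups share that genotype, the cytokine (5 ng/ml IL3) and the agent (200 nM OHT), and differ in time. The line was also differentiated in GCSF (10 ng/ml, begun 48 h before 100 nM OHT), the neutrophil condition, whose 12h and 32h libraries (3 each) are used below as the parallel interval. Each time point had a plate of its own, so that time and plate cannot be told apart. Cells were detached with trypsin at all time points later than 24h, so the 32h libraries were trypsinised and the 12h libraries were not. No OHT-free culture at 12h or 32h was analysed here.

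PU.1 is an ETS-family transcription factor that progenitors need to become macrophages or neutrophils, and it acts by binding the promoters and enhancers of myeloid genes such as those for cytokine receptors, Fc receptors and oxidase subunits. Differentiating myeloid cells usually divide several times before they leave the cell cycle, and in parallel they load lysosomes and granules and put lectins and immunoreceptors on their surface. Immediate-early genes such as *Fos* and *Egr1* are transcribed within minutes of a growth signal or of mechanical or enzymatic handling, and their transcripts decay quickly.

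The 6 libraries held 20187224 to 30520121 reads on genes, and the lowest of the 32h libraries was deeper than the highest of the 12h libraries by a small margin (24898215 against 24571711 reads). Transcripts of the 13 mitochondrial genes took 1.36% to 1.46% of the reads at 12h and 1.79% to 2.18% at 32h, and the part of this difference in the results was not tested. Replicates of a group correlated with r of 0.993 to 0.994 across genes. *Spi1*, whose reads cannot be divided here between the fusion and the native gene, had 7732, 7572 and 7601 normalized counts at 12h against 6557, 5964 and 6135 at 32h, a log2 fold change (32h minus 12h, here and below) of -0.30 (adjusted p = 1.16e-07, SE 0.05), which was below the threshold used. In these bulk libraries, more cells with a transcript and more transcript per cell cannot be told apart.

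Between 12h and 32h, 1252 of 17414 genes tested rose (7.19%) and 536 fell (3.08%), by limma. A gene counted as changed where its Benjamini-Hochberg adjusted p was under 0.05 and its log2 fold change beyond 0.58 in either direction. Of these, 639 rose and 170 fell by more than 1 on the log2 scale, and the median over all genes was 0.00. Protein-coding genes made up 83.1% of those that rose and 92.2% of those that fell, against 83.9% of all genes tested. Expression had not levelled off at 12h, so that the first hours of the interval were not a plateau. In the 4 h from 8h to 12h, 663 genes rose (3.81%) and 436 fell (2.5%), and in the 4 h from 12h to 16h 357 changed in either direction (2.05%). The next steps gave 27 genes (0.155%) from 16h to 20h, 37 (0.212%) from 20h to 24h, 56 rises and 6 falls (0.322% and 0.0345%) from 24h to 32h, and 11 and 6 (0.0632% and 0.0345%) from 32h to 40h. These small counts moved with single replicates. Without replicate 1 the step from 24h to 32h had 32 genes that rose. Leaving out replicate 2 left 3 genes from 16h to 20h, 9 from 20h to 24h, and 4 rises and 0 falls from 32h to 40h, while 69 changed from 20h to 24h without replicate 1. From 12h to 24h, where no library on either side was trypsinised, 754 genes rose (4.33%) and 314 fell (1.8%). Neighbouring intervals share libraries, so their counts are given side by side and were not tested against each other.

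**Figure D1:**
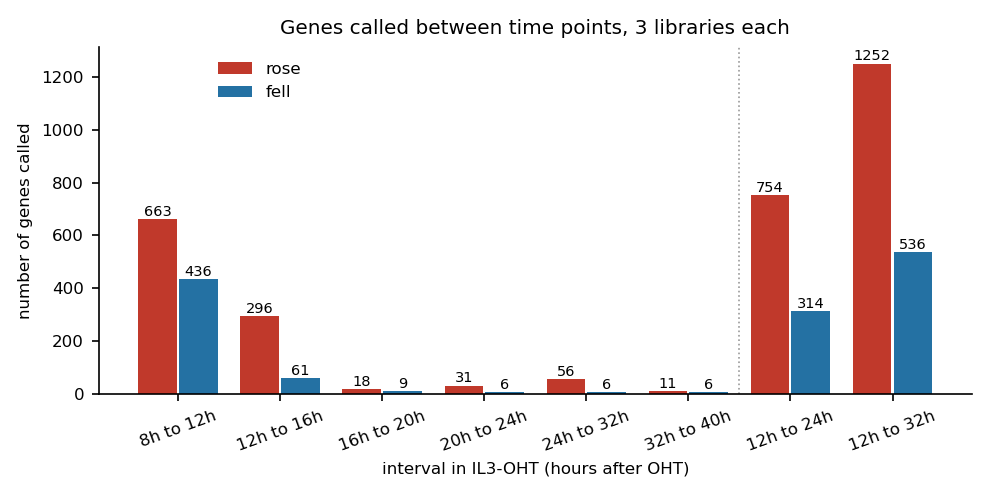
Number of genes called in each interval of the IL3 time course, 3 libraries at each time point. The bars start at 0, with genes that rose in red and genes that fell in blue. Left of the dotted line are consecutive steps and right of it the 2 longer intervals. The counts drop from 663 and 436 for the step up to 12h to 27 in all from 16h to 20h, while 12h to 32h as a whole has 1252 and 536.

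The most uniform rise was that of mitosis genes. Of 44 tested members of the list (cyclins, kinesins, kinetochore and spindle checkpoint genes), 41 rose and 0 fell, with a median log2 fold change of 1.11 beside 0.00 over all genes. *Mki67*, which encodes the proliferation antigen Ki-67 and had the highest count of the list, had 2939.8, 3174 and 2896 normalized counts at 12h against 7299.9, 8019 and 7209.6 at 32h, a log2 fold change of 1.32 (adjusted p = 4.9e-27, SE 0.09). *Ccnb2*, encoding cyclin B2, which takes cells into mitosis, had 307, 369 and 379 normalized counts at 12h against 951, 980.3 and 863 at 32h and a log2 fold change of 1.41, so that the lowest 32h library was more than 2-fold above the highest 12h library. *Hmmr*, a spindle gene, rose by 1.40, and the kinetochore genes *Cenpe* and *Cenpf* by 1.38 and 1.37. *Cdc25b*, *Bub3* and *Pttg1*, named here after their values were seen, were the 3 members that did not pass.

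The rise of the mitosis list was largely in place before trypsin was used. From 12h to 24h the same count of 41 members rose with a median of 0.98, and from 24h to 32h 0 members passed and the median was 0.18. Relative to its own level at 12h, the median of the list was -0.19 to -0.12 in the 3 libraries at 8h, 0.47 to 0.51 at 16h, 0.77 to 0.90 at 20h, 1.08 to 1.15 at 32h and 1.07 to 1.14 at 48h. It was 0.12 to 0.19 in undifferentiated cells and -0.27 to -0.18 at 168h. The 12h libraries thus lay below the undifferentiated ones, and the 32h libraries above both ends of the time course.

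DNA replication genes followed with smaller changes. Of 46 members 18 rose and 0 fell, with a median of 0.50. *Rrm2*, the small subunit of ribonucleotide reductase, had 629, 698 and 678 normalized counts at 12h against 1854, 1854 and 1811 at 32h and a log2 fold change of 1.46 (adjusted p = 1.41e-40, SE 0.06). The helicase subunit gene *Mcm7* rose by 0.91 and the replication factor *Mcm10* by 0.81. *Rpa3* of the single-strand binding complex rose by 0.84 and the thymidine kinase *Tk1* by 0.80. *Mcm6*, with the highest count, was at 0.45 and below the threshold. Among G1 cyclins and their inhibitors 6 of 19 rose and 1 fell (0 without 12h replicate 3 or 32h replicate 1). *Ccnd3* (cyclin D3) rose from 3055 ± 146 to 5913 ± 390.2 normalized counts (SD, n = 3) and its partner kinase *Cdk6* by 0.67 on the log2 scale, and the inhibitors *Cdkn2c* and *Cdkn2a* rose by 0.76 and 0.70. *Ccnd2*, the most counted cyclin of the list, was at -0.05 with overlapping groups. *Myb*, a transcription factor of dividing progenitors, had 2557, 2610.4 and 2623 normalized counts at 12h against 5573, 5812 and 5308 at 32h, a rise of 1.10 (adjusted p = 1.41e-40, SE 0.05).

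The promoters of mitosis genes are known for the cell cycle genes homology region (CHR, searched as TTTGAA on both strands) together with CCAAT boxes. In RefSeq promoters (250 bases before to 50 after each start, GRCm38.p6), 27 of the 37 mitosis genes with an entry held TTTGAA, against 15.2% of the genes tested and 17.9% of all promoters. CCAAT was in 28 of them (75.7%, against 42.8% of the genes tested). The DNA replication list held TTTGAA in 5 of 37 genes and the E2F site TTTCCCGC in 6 (16.2%, against 2.13% of the genes tested). These shares are descriptions, not sites shown to be bound. The 200 bases before the start of 2 of the genes follow with TTTGAA in capitals, for *Ccnb2* at chr9:70421555-70421754 and for *Mki67* at chr7:135716380-135716579, both read 5′ to 3′ on the minus strand, to show where the letters lie.
Ccnb2: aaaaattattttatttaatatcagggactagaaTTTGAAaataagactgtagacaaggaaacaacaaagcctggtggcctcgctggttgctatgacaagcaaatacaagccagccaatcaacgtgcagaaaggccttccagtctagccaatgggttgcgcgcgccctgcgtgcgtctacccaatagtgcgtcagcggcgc
Mki67: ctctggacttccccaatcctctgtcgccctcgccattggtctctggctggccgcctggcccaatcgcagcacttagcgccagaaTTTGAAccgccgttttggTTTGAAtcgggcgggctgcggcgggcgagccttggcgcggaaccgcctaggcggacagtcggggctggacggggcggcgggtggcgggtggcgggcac

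**Figure D2:**
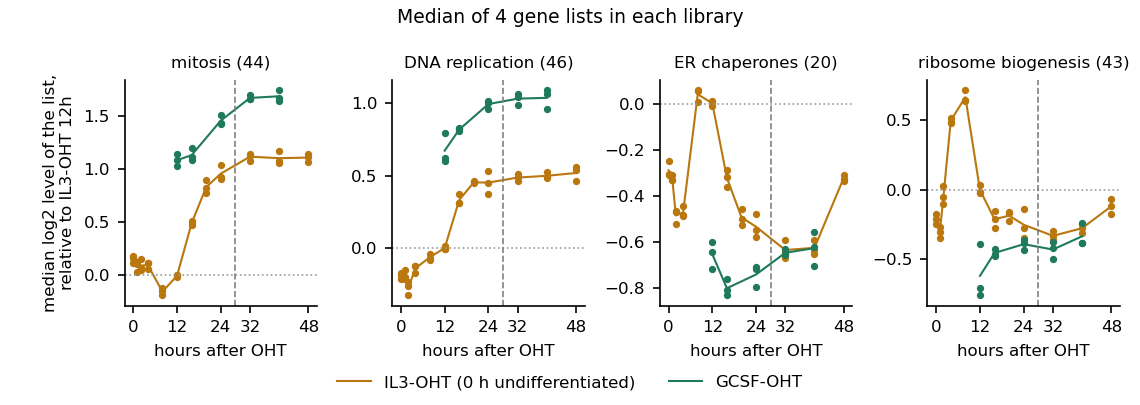
Median log2 level of 4 gene lists in each library (points, 3 per time point, lines through their means), relative to the mean of IL3-OHT 12h, against hours after OHT. IL3-OHT starts from undifferentiated cells at 0 h, numbers in brackets are genes tested, and the dashed line separates libraries harvested without trypsin (left) and with it (right). In IL3 the mitosis median climbs from about 0 at 12h to 1.08 to 1.15 at 32h while the ER chaperone median drops to -0.67 to -0.59.

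Genes for protein folding in the endoplasmic reticulum (ER) moved the other way. Of 20 ER chaperones and folding enzymes 11 fell and 0 rose, with a median of -0.63. *Hspa5*, which encodes BiP, the main chaperone of the ER lumen, had 50451, 52359.6 and 51359.9 normalized counts at 12h against 21998, 21388 and 21839 at 32h, so that the mean at 12h was 2.36-fold that at 32h, a log2 fold change of -1.24 (adjusted p = 1.46e-48, SE 0.04). The disulfide isomerase gene *Pdia6* had 13191, 13412 and 13453 normalized counts at 12h against 6247, 5736 and 6106 at 32h (-1.15 on the log2 scale), and *Pdia4*, *Hyou1* and *Creld2* changed by -0.98, -0.97 and -0.93. No 12h library overlapped a 32h library for any of these. Calreticulin (*Calr*), the most counted of the list over the 6 libraries, fell by 0.66 on the log2 scale, with 48458 ± 439 normalized counts at 12h and 30707 ± 955 at 32h (SD, n = 3). From 12h to 24h 8 members fell, and from 24h to 32h 0 passed.

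The decrease started from the level reached by 8h and 12h. Relative to 12h the ER list stood at -0.31 to -0.25 in undifferentiated cells, 0.01 to 0.06 at 8h, -0.36 to -0.29 at 16h and -0.33 to -0.31 at 48h, the last taken after fresh OHT and medium at 40h. *Hspa5* counts were 59865, 59446 and 59039.7 at 8h but 33809, 31084 and 31413 by 16h, and 25074, 24616 and 25037 at 40h before returning to 35330.0, 35162 and 35098 by 48h. The 32h libraries were therefore near the low point of the first 48h.

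ER chaperone promoters are known for the ER stress response element, searched here as CCAAT, 9 bases, then CCACG, on both strands. It was present in 9 of the 18 list members with a RefSeq promoter, 6 of the 9 of these that fell, and 0.163% of the genes tested (0.119% of all promoters). The letters include 1 CCAAT box. The 200 bases before the start of the genes with the largest falls are shown with the element in capitals, for *Hspa5* at chr2:34771890-34772089 and *Pdia6* at chr12:17266389-17266588, both on the plus strand.
Hspa5: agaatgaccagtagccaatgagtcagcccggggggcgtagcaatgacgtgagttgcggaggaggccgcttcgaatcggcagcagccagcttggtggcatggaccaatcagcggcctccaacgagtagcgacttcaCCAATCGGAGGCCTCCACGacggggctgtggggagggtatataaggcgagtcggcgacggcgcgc
Pdia6: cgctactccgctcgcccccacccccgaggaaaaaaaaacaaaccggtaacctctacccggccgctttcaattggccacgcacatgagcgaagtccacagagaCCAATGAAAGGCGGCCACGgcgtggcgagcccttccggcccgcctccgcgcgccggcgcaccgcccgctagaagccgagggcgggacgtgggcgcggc

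Genes for ribosome assembly fell along with the chaperones, and less. Of 43 ribosome biogenesis factors 9 fell and 0 rose, with a median of -0.33. *Utp20* and *Rrp9*, of the machinery that processes the small subunit, fell by 0.76 and 0.75 on the log2 scale, *Nhp2*, which guides pseudouridylation, by 0.72, the RNA acetylase *Nat10* by 0.68 and the helicase *Ddx21* by 0.67. *Utp20* had 1911, 2105 and 1774 normalized counts at 12h against 1099, 1203 and 1112 at 32h. The larger part of this list's decrease came before, since 26 of 43 members fell from 8h to 12h with a median of -0.65. Among 52 cytosolic ribosomal protein genes 0 passed in either direction (median -0.08), as among 32 nuclear genes of the respiratory chain (-0.04) and 20 aminoacyl-tRNA synthetases (-0.29), of which 1 fell without 12h or 32h replicate 1. The synthetase *Aars* had 7716, 7967 and 8004 normalized counts at 12h against 5649.8, 5027 and 5278 at 32h, which did not overlap but differed by -0.57, just below the threshold.

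Of 23 genes of the ATF4 amino acid response 4 fell and 0 rose (median -0.22). *Slc7a11*, the cystine transporter, had 127.01, 174.5 and 148 normalized counts at 12h against 37.1, 41.6 and 54.3 at 32h, a change of -1.74 (adjusted p = 1.41e-11, SE 0.21). *Atf5*, a transcription factor translated under stress, fell from 6568 ± 71.4 to 2402 ± 280.0 normalized counts (SD, n = 3), and *Phgdh*, which opens serine synthesis, and *Trib3* each fell by 0.66 on the log2 scale. *Atf4* itself was at -0.22 and did not pass the threshold.

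**Figure D3:**
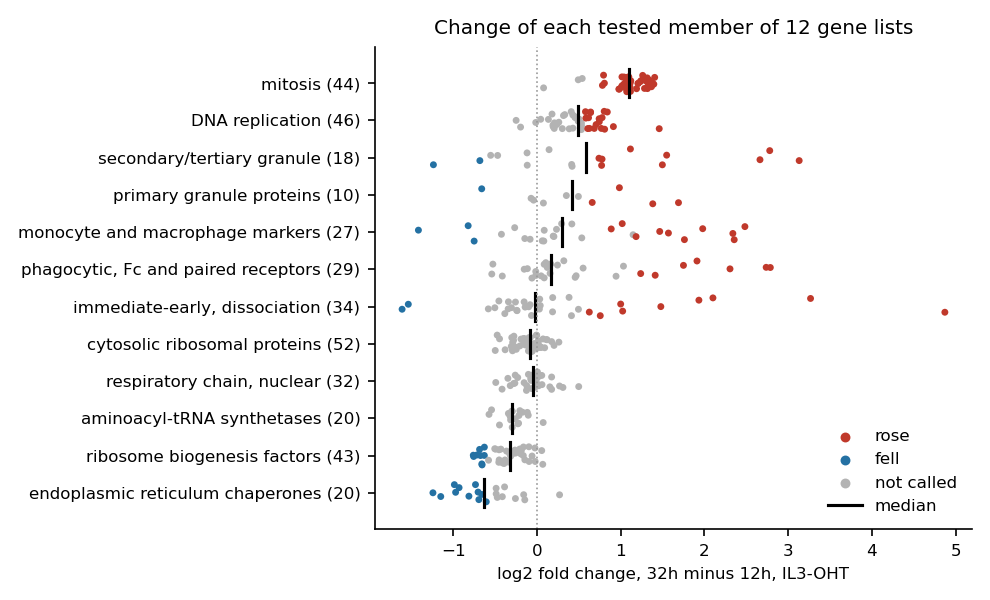
Log2 fold change from 12h to 32h in IL3-OHT of every tested member of 12 gene lists, with the number tested in brackets. Red points rose, blue points fell, grey points were not called, black bars are medians and the dotted line is 0. The mitosis points lie together around 1.11, the ER chaperones around -0.63, and the myeloid lists spread in both directions.

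Myeloid surface and granule genes spread widely, with large rises of some members and falls of others. Of 29 phagocytic, Fc and paired receptors 7 rose and 0 fell (1 without 32h replicate 1), with a median of only 0.17. *Tyrobp*, the adaptor DAP12 through which many of these receptors signal, had 53.8, 39.5 and 32.9 normalized counts at 12h against 319, 268 and 286 at 32h, a 6.92-fold higher mean and a log2 fold change of 2.79 (adjusted p = 3.5e-14, SE 0.30). The C-type lectins *Clec12a*, an inhibitory receptor, and *Clec4n* (dectin-2, which binds fungal mannans) rose by 2.74 and 2.31. *Clec12a* had 65.3, 67.03 and 49.8 normalized counts at 12h against 436, 393 and 393 at 32h. The inhibitory receptors *Pirb* and *Siglece* rose by 1.91 and 1.75, and *Lilrb4a*, with the highest level of the list, was at 0.55, just under the threshold. *Nfam1*, a receptor with an activation motif in its tail that is in none of the lists, had 296, 314 and 319 normalized counts at 12h against 2064, 1883 and 1931 at 32h (2.66), and the lectin *Clec4a2* rose by 2.14. Genes of the Clec4a cluster resemble one another, so their counts are less certain.

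Of 27 monocyte and macrophage markers 10 rose and 3 fell, with a median of 0.30. *Lyz2* (lysozyme), the most abundant, had 152736, 155113 and 145396 normalized counts at 12h against 342182, 337961 and 349417 at 32h, a 2.27-fold higher mean. The chemokine receptor *Ccr2* had 632, 703 and 641 normalized counts at 12h against 1842, 2192 and 1856 at 32h (1.57), fibronectin (*Fn1*) rose by 1.76, the beta-glucan receptor *Clec7a* by 1.98 and *Clec4a1* by 2.34. *Mmp12*, macrophage elastase, had 23.8, 19.3 and 15.9 normalized counts at 12h against 111.3, 86.7 and 150.2 at 32h (2.48, standard error 0.44). The scavenger receptor *Msr1*, also a macrophage gene, had 228, 259 and 250.1 normalized counts at 12h against 218, 251 and 228 at 32h, and its groups overlapped. The 3 that fell, *Cd14*, *Marco* and *Lpl*, are named after their values were seen.

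Some genes of neutrophil granules rose in IL3 as well. Of 18 secondary and tertiary granule and neutrophil maturation genes 9 rose and 2 fell, 1 of them lost without replicate 1 (median 0.58). *Mmp8*, neutrophil collagenase, had 16.8, 14.7 and 9.54 normalized counts at 12h against 120.4, 123.2 and 130.1 at 32h, and *Mmp9*, gelatinase B of tertiary granules, had 162, 118.4 and 147.3 normalized counts at 12h against 1076, 944 and 920.4 at 32h, with log2 fold changes of 3.13 and 2.78. *Chil3*, a chitinase-like protein of myeloid cells, had 4299, 4266 and 3839 normalized counts at 12h against 25718, 26314 and 26467 at 32h, a log2 fold change of 2.66 (adjusted p = 2.53e-55, SE 0.08). Calprotectin's *S100a8* rose by 0.78. Of 10 genes of the primary granule list 4 rose and 1 fell. Among the 4, *Hk3* encodes a hexokinase and *Ms4a3* a membrane protein, neither a granule protein. Myeloperoxidase (*Mpo*) had 2253, 2165 and 2286 normalized counts at 12h against 8429, 6329.7 and 7035 at 32h, a log2 fold change of 1.69 (adjusted p = 5.97e-29, SE 0.10), *Ms4a3* rose by 0.99 and *Hk3* by 0.66, whereas neutrophil elastase (*Elane*) was at -0.04 with overlapping groups and the proteases *Prtn3* and *Ctsg* at 0.50 and 0.35 did not pass. *Prss57*, the fourth that rose, had 5.29, 0.918 and 3.18 normalized counts at 12h against 3.50, 14.4 and 11.9 at 32h, and those groups overlapped. The gene of this list that fell was *Calr*, an ER chaperone.

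Other myeloid functions changed through single genes. Among NADPH oxidase genes 2 rose, *Cybb* (gp91phox, the catalytic subunit) with 16.8, 31.2 and 19.1 normalized counts at 12h against 140.0, 190.3 and 180.7 at 32h and *Ncf4* (p40phox) with 6.17, 12.9 and 15.9 normalized counts at 12h against 44.1, 36.5 and 40.1 at 32h, while *Cyba*, *Ncf1*, *Rac1* and *Rac2* lay between -0.07 and 0.22 and did not pass. Of 35 cytokine, chemokine and pattern receptors 12 rose and 2 fell (median 0.19), with 8 to 11 rises when replicates were left out. The nucleic acid sensor *Tlr8* had 10.6, 8.26 and 13.8 normalized counts at 12h against 104.96, 113 and 91.4 at 32h (3.15), *Tlr13* rose by 0.73 and the GCSF receptor *Csf3r* by 0.87. *Csf2rb2*, the beta chain used by the IL3 receptor only, had 22969, 23000.0 and 22436 normalized counts at 12h against 10309.5, 9568 and 10094 at 32h, a change of -1.19 (adjusted p = 9.82e-42, SE 0.05), and its close relative *Csf2rb* was at -0.36; the 2 genes are similar in sequence, so reads may have been split between them. Of 12 genes of leukotriene and prostaglandin synthesis 3 rose, among them thromboxane synthase (*Tbxas1*) with 3.53, 3.67 and 9.54 normalized counts at 12h against 76.97, 78.2 and 72.9 at 32h and *Lta4h* by 0.77. Of 30 integrin and adhesion genes 5 rose, thrombospondin 1 (*Thbs1*, 1.25), *Selplg* (0.95), *Itgb3* (0.93), *Itgam* (0.89) and *Pecam1* (0.74). The *Itgb3* call was lost without 12h replicate 3, and when replicate 1 or replicate 2 was left out of all groups. In the same list 1 fell, *Tln1* (talin, -0.58), a call lost without 12h replicate 3, 32h replicate 2 or 32h replicate 3.

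For the largest of these changes most of the distance was covered by 24h, before trypsin was used. From 12h to 24h *Tyrobp* rose by 2.19, *Clec12a* by 2.14, *Nfam1* by 2.09, *Mmp8* by 2.56 and *Cybb* by 2.13. These genes had begun to climb before the interval, *Tyrobp* from 9.20, 7.50 and 10.5 normalized counts at 8h. *Mpo* was divided evenly, with 0.85 to 24h and 0.84 after it. Levels at 40h were 311, 280.4 and 271 for *Tyrobp* and 2543, 2433 and 2275 for *Nfam1*.

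The largest falls outside the chaperones were in genes of several functions. *Atp1b2*, a beta subunit of the sodium pump, had 373, 331 and 286 normalized counts at 12h against 55.98, 44.2 and 52.8 at 32h, a mean 6.47-fold higher at 12h and a log2 fold change of -2.67 (adjusted p = 1.01e-17, SE 0.24). The intracellular protease inhibitors *Serpinb9e*, *Serpinb9f* and *Serpinb9g* fell by 1.80, 2.04 and 2.15 on the log2 scale, but they are near-identical neighbours and their counts cannot be separated with certainty. *Nqo1*, a detoxifying reductase, had 253, 229 and 230.0 normalized counts at 12h against 65.8, 66.3 and 60.97 at 32h (-1.87), glutamine synthetase (*Glul*) had 14379.9, 15448 and 14523 normalized counts at 12h against 5303, 5144 and 5430.4 at 32h (-1.48) and the guidance factor *Sema3a* fell by 1.63. The heat shock genes *Hspa1a* and *Hspa1b*, nearly identical copies, fell by 1.54 and 1.61. *Slitrk5* and *Nkain1*, both known from neurons, fell by 1.57 and 1.51. Among abundant genes, osteopontin (*Spp1*) had 104122, 104557 and 103785 normalized counts at 12h against 57628, 59842 and 61764 at 32h, and ferritin light chain (*Ftl1*), which stores iron, changed by -0.77 while the iron exporter of phagosomes *Slc11a1* changed by -1.13. From 12h to 24h *Atp1b2* changed by -1.93 and *Glul* by -1.08.

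In several metabolic and signalling lists a minority of members changed in this interval, in which 7.19% of all genes rose and 3.08% fell. Hypoxia genes outside glycolysis rose in 16 of 19 cases from 8h to 12h (median 1.27), and in 3 of 19 from 12h to 32h (median 0.13), *Car9* by 0.81, *Fam162a* by 0.79 and *Bnip3l* by 0.63. Glycolysis genes rose in 13 of 19 cases and fell in 1 over the earlier step, against 2 of 19 here, *Aldoc* (0.89) and *Pgk1* (0.80). The counts of the 19 glycolysis genes summed to 581364 to 637208 at 12h and 734805 to 777993 at 32h, without overlap. Of 26 cholesterol synthesis genes 1 rose from 12h to 32h, *Acat2* (0.61, lost without 32h replicate 1), and 9 rose from 16h to 40h. Lysosomal genes gave 1 rise and 2 falls of 56 (median 0.03), or 0 rises without 12h replicate 1, 12h replicate 3 or 32h replicate 2 and 1 fall without the last, and the protease legumain (*Lgmn*) changed by -1.16. Interferon-stimulated genes gave 5 rises of 36, with *Isg20* at 1.23 and *Ifit2* at 1.14. The anti-apoptotic genes *Bcl2a1a*, *Bcl2a1b* and *Bcl2a1d* made up the 3 rises among 15 genes of the BCL2 family, at 2.23, 1.65 and 1.45. They are near-identical copies, of which 1 was called without 12h replicate 2. The *Bcl2a1d* call was also lost without 12h replicate 3, 32h replicate 1 or 32h replicate 2. That of *Bcl2a1b* was also lost without 32h replicate 3.

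Of 34 immediate-early and dissociation-response genes 9 rose and 2 fell from 12h to 32h, and 23 were not called, with a median of -0.02. The largest of these rises came late in the interval. *Fosb*, a subunit of the AP-1 transcription factor, was the gene with the largest rise named by rule and had 169.4, 156 and 182 normalized counts at 12h against 4976, 5608 and 4399 at 32h, a log2 fold change of 4.87 (adjusted p = 2.32e-47, SE 0.18). At 24h it had 61.5, 67.4 and 54.2 normalized counts, so its whole rise lay between 24h and 32h. *Fos* had 548, 612 and 660.3 normalized counts at 12h against 5907, 6140.3 and 5474 at 32h, a log2 fold change of 3.27 (adjusted p = 1.95e-48, SE 0.12), with 726, 709 and 578 at 24h. The growth-response factor *Egr1* had 737, 623 and 721 normalized counts at 12h against 5201, 5830.2 and 5338 at 32h, a log2 fold change of 2.98 (adjusted p = 7.48e-30, SE 0.18), with 555, 725 and 607 at 24h. *Dusp1*, a phosphatase that switches off MAP kinases, and *Zfp36*, which destabilises cytokine transcripts, rose by 2.10 and 1.93 over the interval and by 2.17 and 2.40 from 24h to 32h. *Egr2* rose before and after 24h, by 0.96 and 1.37.

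The step from 24h to 32h was the one at which harvesting with trypsin began, and the 2 cannot be told apart in IL3 alone or together with GCSF, since the change of harvest was the same in both. Of the 34 immediate-early and dissociation-response genes, 0 rose and 7 fell from 12h to 24h, 7 rose and 0 fell from 24h to 32h, and 0 passed from 32h to 40h, where both sides were trypsinised. In GCSF, 8 of 34 rose from 24h to 32h and 0 fell. Over all genes that step gave 27 rises in GCSF (0.155%), which were 15 without replicate 1, and 3 falls (0.0172%). The preceding 8 h, from 16h to 24h, gave 68 rises (0.39%) and 26 falls (0.149%) in IL3, while in GCSF 0.586% of genes rose and 0.327% fell, and the following 8 h in GCSF gave 17 (0.0976%) and 14 (0.0804%). The libraries of the 2 conditions are separate, and 16 genes rose in both, which is 28.6% of the 56 in IL3 and 59.3% of the 27 in GCSF. These were *Fosb*, *Fos*, *Egr1*, *Zfp36*, *Dusp1*, *Ier2*, *Junb*, *Egr2*, *Osm*, *Ccl3*, *Jun*, *Ptgs2*, *Cxcl2*, *Chil3*, *Mmp9* and *Tnf*, listed after their values were seen. Most are immediate-early or inflammatory genes. *Chil3* and *Mmp9* differed in that they had also risen by 1.92 and 2.05 from 12h to 24h.

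The same immediate-early genes were high at the start of the time course too. *Fosb* had 10493, 10285 and 10230.1 normalized counts in undifferentiated cells, 17926, 19210.1 and 19327 at 1h but 123.3, 110.3 and 137.1 by 8h. After 32h it stayed high, with 5066, 4931 and 4994 in the 48h libraries and 1359.8, 2681 and 2571 in those taken at 168h. *Egr1* had 3007, 2852 and 2972 in undifferentiated cells and 6401, 8116 and 7873 at 168h. Among inflammatory genes, *Osm*, *Ccl3* and *Ptgs2* rose by 1.38, 1.08 and 1.16 from 12h to 32h and had log2 fold changes of 0.14, -0.05 and 0.09 from 12h to 24h. *Ccl6*, also a chemokine, had its rise of 1.88 mainly before 24h (1.32). Of 44 myeloid transcription factors 5 rose and 2 fell (0 without 32h replicate 2, 1 without 12h replicate 1 or 3), and *Egr1*, *Egr2*, *Nr4a1* (1.46) and *Klf2* (0.92) were 4 of the 5 that rose, each of them called from 24h to 32h as well. The fifth was the repressor *Gfi1* (0.64). *Cebpa*, the most counted factor of the list, was at 0.11 with overlapping groups.

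Serum response factor binds the CArG box, which many immediate-early promoters hold. Within the RefSeq window 2 of 29 list members had one (6.9%, against 1.58% of the genes tested), and 2 held the CRE letters TGACGTCA (6.9% against 3.3%). The 200 bases before the start of *Zfp36*, at chr7:28379229-28379428 on the minus strand, are shown as the example, with the CArG box in capitals.
Zfp36: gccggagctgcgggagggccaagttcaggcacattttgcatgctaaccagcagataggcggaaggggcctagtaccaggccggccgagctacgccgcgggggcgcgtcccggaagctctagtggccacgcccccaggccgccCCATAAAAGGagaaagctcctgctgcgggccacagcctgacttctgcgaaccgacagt

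The PU.1 core GAGGAAGT was in 6.16% of the genes that rose from 12h to 32h, 3.03% of those that fell and 3.73% of the genes tested.

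**Figure D4:**
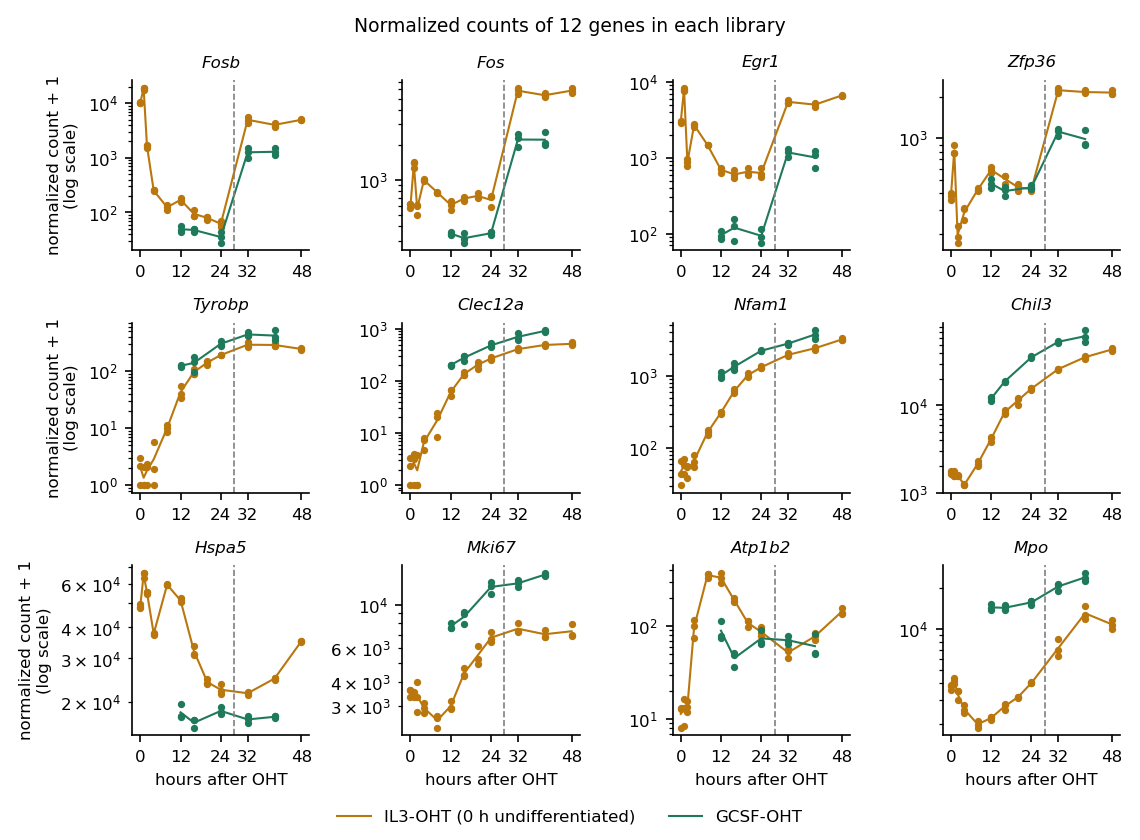
Normalized counts plus 1 (log scale) of 12 genes in each library (points, 3 per time point, lines through their means) against hours after OHT, in IL3-OHT from undifferentiated cells at 0 h and in GCSF-OHT from 12h to 40h. The dashed line separates harvests without (left) and with (right) trypsin. *Fosb*, *Fos*, *Egr1* and *Zfp36* jump across that line in both conditions, *Tyrobp*, *Clec12a*, *Nfam1* and *Chil3* climb from before 12h onwards, and *Hspa5* and *Atp1b2* drop from 12h to 24h in IL3.

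Markers of other blood cells, neutrophils not counted, summed to far less than those of macrophages in all 6 libraries. The neutrophil lists lay far above these. The primary granule list summed to 164849 to 169306 at 12h and 163779 to 181327 at 32h. This sum includes the ER chaperone *Calr*, whose counts are given above, so it does not count neutrophil genes only. Secondary and tertiary granule and neutrophil maturation genes summed to 142295 to 146896 at 12h and 213903 to 233146 at 32h. Of the 10 eosinophil markers 5 were at 0 in all 12h libraries and 4 in all 32h libraries, and their counts summed to 6.36 to 9.18 at 12h and 11.9 to 24.5 at 32h. *Siglecf* of this list was called as a rise, with 0, 0 and 1.06 normalized counts at 12h against 9.80, 2.55 and 2.97 at 32h, a call lost without 32h replicate 1. Mast cell and basophil markers (18 in the table, 10 at 0 at 12h and 8 at 32h) summed to 235 to 246 and 258 to 277. Among them *Mcpt8* rose by 0.72 and *Itga2b*, which is also a megakaryocyte gene, fell by 0.62 on the log2 scale. At 32h these 2 genes had 106.2 ± 7.19 and 73.6 ± 7.64 normalized counts (SD, n = 3). The fall of *Itga2b* was lost without 32h replicate 1. Lymphoid and dendritic markers summed to 65.3 to 80.5 at 12h and 78.4 to 88.3 at 32h, and *Klrb1c* of that list, with 0.882, 0.918 and 4.24 normalized counts at 12h against 7.70, 5.10 and 4.46 at 32h, was called as a rise and lost without either of replicates 1 and 2 at 12h or at 32h. Erythroid and megakaryocyte markers summed to 1308 to 1382 at 12h and 1299 to 1394 at 32h (2 of the 8 tested were called as rises, 0 of them without 12h replicate 1 or 3 or 32h replicate 1 or 2), most of it *Vwf* (1199 ± 51.05 at 12h, 1130.1 ± 46.1 at 32h). Monocyte and macrophage markers, by contrast, summed to 296198 to 306878 at 12h and 475425 to 489368 at 32h. The rise of this sum lay in *Lyz2*, whose counts are given above. Without *Lyz2* the mean sum of the list was lower at 32h than at 12h. The paper also counts *Lyz2* among genes of the most mature bone marrow neutrophils, so it does not mark macrophages only.

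In GCSF the same interval changed fewer genes. There 410 genes rose from 12h to 32h (2.35%) and 312 fell (1.79%), the latter count being 188 without replicate 2. Of the 1252 genes that rose in IL3, 219 rose in GCSF, which is 17.5% of the IL3 and 53.4% of the GCSF rises, and 10 fell. Of the 536 that fell, 72 fell in GCSF (13.4% and 23.1%) and 1 rose. The difference of the changes, tested as an interaction, was higher in IL3 for 756 genes (4.34%) and lower for 358 (2.06%), the latter being 238 without replicate 2. It was called in the same direction for 38.6% of the genes that rose in IL3 and 31.5% of those that fell.

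Both the mitosis and the chaperone genes differed between the conditions in this test. Among mitosis genes 19 of 44 had a higher change in IL3 and 0 a lower one, although 23 rose in GCSF too (median 0.60). *Ccnb2* rose by 1.41 in IL3 and was at 0.35 in GCSF. The GCSF libraries began from a higher level, with a list median of 1.03 to 1.14 at 12h and 1.66 to 1.69 at 32h relative to IL3 at 12h. Among ER chaperones 10 of 20 had a lower change in IL3, and 0 passed in GCSF (median -0.06). *Hspa5* had 17547, 17446 and 19654 normalized counts in GCSF at 12h and 16496, 17543 and 17126 at 32h, all below the IL3 libraries at 32h. Ribosome biogenesis gave 12 of 43 lower changes in IL3 and 0 calls in GCSF. In the primary granule list 5 of 10 members had a higher change in IL3 and 0 a lower one, with 0 calls in GCSF. Of the monocyte and macrophage markers 9 of 27 were higher and 2 lower. Secondary and tertiary granule genes gave 1 higher and 2 lower of 18, and phagocytic, Fc and paired receptors 1 higher and 0 lower of 29. *Chil3*, *Mmp9*, *Tyrobp* and *Clec12a* rose by 2.16, 2.17, 1.83 and 1.79 in GCSF, and their differences of 0.50 to 0.96 did not pass.

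**Figure D5:**
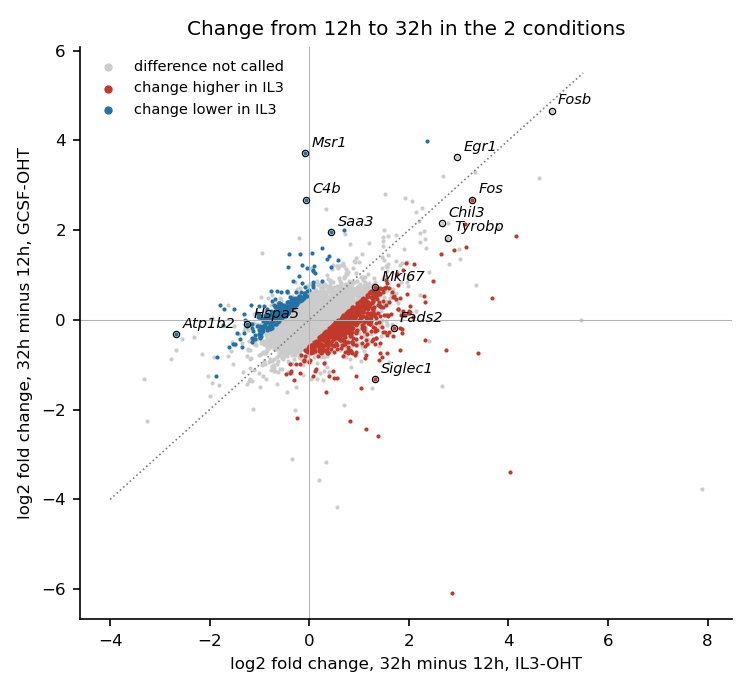
Log2 fold change from 12h to 32h in GCSF-OHT against that in IL3-OHT for the 11487 genes whose mean was 20 normalized counts or more over the 6 IL3 libraries. Red and blue points are genes whose change was higher or lower in IL3 by the interaction test, grey points were not called, and the dotted line marks equal changes. *Fosb* and *Egr1* lie far out near that line, *Msr1*, *C4b* and *Saa3* lie high on the GCSF axis, and *Siglec1* has opposite signs.

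A comparison of 40h with 16h in IL3 shares no library with that of 32h with 12h and covers much of the same hours. Its later libraries were trypsinised and its earlier ones were not, so time and harvest cannot be told apart in either comparison. It called 622 rises (3.57%) and 253 falls (1.45%). Of the 1252 genes that rose from 12h to 32h, 405 were among those rises, which is 32.3% of the former and 65.1% of the latter, and 0 were among the falls. Of the 536 that fell, 23.3% fell again, which is 49.4% of the falls of the second interval, and 2 rose. The log2 fold change had the same sign in 93.1% of the genes that rose and 89.9% of those that fell, against 50.0% and 48.5% of all genes with those signs. In the mitosis list 24 of 44 rose (median 0.60) and among ER chaperones 3 of 20 fell (median -0.21), smaller changes than from 12h. *Mpo* went further, by 2.26 against 1.69.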

How the data were processed

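Values were taken from 1 deposited table of 36255 genes by 165 libraries. Per the labels and the methods, the authors quantified reads with Salmon on GRCm38 (mm10) and divided counts by DESeq2 size factors, so the deposited values are a normalized signal, and every value above 0 was a whole multiple of that of 1 read (100% of values, tolerance 1e-06). The strand setting is not given in the sources used here. The log2(value + 1) levels of 159 libraries (IL3-OHT 96h and 144h left out, as in the study) were fitted with limma 3.58.1, 1 mean per condition and time point and a trended prior, for the 17414 genes with a value of at least 5 in 1 library. Tests are two-sided, with Benjamini-Hochberg adjustment over all genes. Fold changes of low genes are understated on this scale. The recovered whole reads were also tested with edgeR 4.0.16 and DESeq2 1.42.0 on the 36 libraries of the groups compared. R 4.3.3 was used. The functions that fit the models were tested on a smaller set of simulated data. That test did not cover the full fit, the recovery of reads, the list counts or the promoter searches.

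The groups come from the labels. Replicate numbers did not pair libraries, and replicates are separate wells. The limma p-values rest on the spread among wells of a group, shared over all 54 groups of the fit. They do not measure the spread of only the 6 libraries compared. Named genes were the 12 largest rises and 12 largest falls with a mean of at least 100 and groups that do not overlap, unnamed gene models left out; up to 5 called genes with a mean of at least 20 and the most counted gene of each list, with all members of lists under 12 genes; the 5 largest differences from GCSF in each direction; *Spi1*; and markers of other cell types above 10 reads. The members, lists and rules were chosen with earlier results of these data known. The CHR, CCAAT, CArG and ER stress motifs, and the steps 12h to 16h, 16h to 20h and 20h to 24h, were added after the data were seen. ERCC spike-ins had 0 entries in the table. Gene classes are from GENCODE vM21.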

Additional observations from a re-analysis of the deposited data

Results flagged for a closer look

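The change from 12h to 32h differed between IL3 and GCSF, by the interaction test, for 756 genes whose change was higher in IL3 and 358 whose change was lower. The largest differences, named by rule, were as follows. *Siglec1* (sialoadhesin, a macrophage receptor) had 46.7, 56.01 and 46.6 normalized counts at 12h against 157.4, 107.9 and 116.7 at 32h in IL3, and 148, 211.6 and 213 and 78.6, 56.2 and 95.5 in GCSF, opposite changes that differed by 2.64 on the log2 scale (standard error 0.43, adjusted p = 3.87e-07). *Nav2* (difference 2.01), the desaturase gene *Fads2* (1.89) and the transcription factor gene *Zbtb20* (1.79) rose in IL3 and were called in neither direction in GCSF. *Fads2* had 182, 202.9 and 188.6 normalized counts at 12h against 707, 612 and 551 at 32h in IL3, against 825, 827 and 786 and 790.3, 685 and 664 in GCSF, so that IL3 came up towards the GCSF level. *Rps26-ps1* (1.87, standard error 0.60) is a pseudogene of a ribosomal protein gene, and its reads may come from that gene. Pseudogenes made up 13.4% of the genes that rose in IL3 and 4.66% of those that fell, against 13.2% of all genes tested.

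Among the lower changes, *Msr1* (-3.79, standard error 0.51) had 0, 4.41 and 1.78 normalized counts in GCSF at 12h, which are 0 to 5 reads, so that the fitted difference depends on the pseudocount and is no exact fold, and 39.6, 28.1 and 27.6 at 32h, while the IL3 libraries lay between 218 and 259 at both times. The complement gene *C4b* (-2.74) had 65.03, 63.5 and 65.9 at 12h and 423, 342 and 516 at 32h in GCSF. Serum amyloid A3 (*Saa3*, -1.52) had 335, 303 and 274 and 1252, 1142 and 1152. *Atp1b2* (-2.35) and *Serpinb9e* (-2.13, of a near-identical family) fell in IL3 and did not pass in GCSF, where *Atp1b2* had 74.1, 77.6 and 113 and 76.6, 64.01 and 67.9. The GCSF libraries had 48 h of GCSF before OHT and a lower OHT dose, so that cytokine, pre-treatment and dose cannot be told apart in these differences.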

How the results depend on the processing

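The counts for 12h to 32h in IL3 stayed within 1.5 times of 1252 and 536 in all 36 recomputed counts, from 1142 to 1425 and 430 to 592 across the analysis settings and 1084 to 1185 and 456 to 571 when replicates were left out. Upper-quartile scaling raised the share of rises from 70.0% to 76.8% and the median of all genes to 0.05. A fit with a replicate block gave 1253 and 540, but same-numbered libraries correlated with r of -0.05, -0.06 and 0.09 and are not paired, and the block changed the call of 0 named genes. Of these genes, 26 changed call in some alternative and 0 reversed. Among the 26 were *Klrb1c*, *Tlr6*, *Ly6a*, *Epor*, *Bcl2a1d*, *Bcl2a1b*, *Tln1*, *Prss57*, *Itgb3*, *Gfi1*, *Hk3*, *Cdkn2a*, *Bnip3l* and *Phgdh*. The counts of the short steps were less stable, and those that moved past 1.5 times are given with their step in brackets. With only the groups compared, rises were 26 (24h to 32h), 24 (16h to 24h) and 0 (32h to 40h), falls 0 (32h to 40h), and changes of either kind 3 (16h to 20h) and 0 (20h to 24h); in GCSF there were 9 rises (24h to 32h), 32 falls (16h to 24h) and 0 of each (32h to 40h). Without a filter on low values, falls were 37 (24h to 32h), rises and falls 30 and 20 (32h to 40h), changes of either kind 70 (16h to 20h) and 99 (20h to 24h), and in GCSF 43 and 12 (24h to 32h) and 28 falls (32h to 40h). DESeq2 gave 11 falls (24h to 32h) and, in GCSF, 5 falls (24h to 32h) and 11 rises (32h to 40h). edgeR gave 13 falls (24h to 32h), a mean of at least 10 gave 3 (32h to 40h), and upper-quartile scaling, in GCSF, 6 (32h to 40h). Leaving out replicates gave, as lowest and highest, 32 to 67 rises (24h to 32h), 37 to 70 rises and 8 to 17 falls (16h to 24h), 4 to 15 and 0 to 3 (32h to 40h), and changes of either kind 3 to 23 (16h to 20h) and 9 to 69 (20h to 24h). In GCSF it gave 188 to 365 falls (12h to 32h), 15 to 25 rises and 1 to 4 falls (24h to 32h), 36 to 77 and 25 to 100 (16h to 24h) and 2 to 16 and 1 to 35 (32h to 40h), and 238 to 484 genes whose change was lower in IL3. The cause was not tested. Depth limits genes near 3 reads, whose fitted changes depend on the pseudocount.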
